A study of Arabidopsis thaliana with 6 samples.

Results

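The cytochrome P450 genes CYP81D11, CYP81D8, CYP89A9 and CYP710A1 are described here in Arabidopsis thaliana cells exposed to phytoprostane A1 (PPA1). They are 4 of the 22746 probe sets tested on the Affymetrix ATH1 array. A probe set is a group of short DNA probes that together report 1 transcript. The genes were taken by probe set identifier, from a list made after the response to PPA1 in these same arrays was known, so their differences between the conditions are given as description and carry no test. CYP81D11 is AT3G28740 (256589_at), CYP81D8 is AT4G37370 (253046_at), CYP89A9 is AT3G03470 (259058_at) and CYP710A1 is AT2G34500 (266995_at). They had been grouped as stress-induced P450 genes. The values of CYP710A1 do not bear that name out, since they were close to the low end of the array and overlapped between the conditions.

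The cells were a mixotrophic culture, which photosynthesises and also uses organic carbon from the medium. In the PPA1 group, 3 replicates were kept for 4 h with 75 µM PPA1, a reactive lipid that forms from a polyunsaturated fatty acid by oxidation without enzymes. The control group, also 3 replicates, was kept for 4 h with 0.5% methanol in water. The labels call the replicates independent without saying what separates them, do not name a genotype, and do not say whether methanol accompanied PPA1, so p-values below measure the spread between these arrays, which may be technical. The design asks how reactive lipids formed without enzymes change gene expression.

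Cytochromes P450 are haem enzymes of the endoplasmic reticulum and plastids that insert oxygen into small molecules, using electrons from a reductase. Plants carry large P450 families. Some members make hormones, sterols, pigments and defence compounds, and others oxidise foreign or damaged molecules so that glutathione or sugars can be attached to them and the product stored in the vacuole. In Arabidopsis, reactive electrophiles and xenobiotics are known to switch on genes of this detoxification route, many of them through bZIP proteins of the TGA class.

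Median signals per array were 49.7 to 51.0 in controls and lower, at 41.9 to 44.8, after PPA1, in the authors' normalized units. Per array, 63.1% to 68.7% of tested probe sets reached a signal of 16, used here as the limit for dim values. PPA1 replicate 1 stood apart from the other PPA1 arrays. Over the 10135 probe sets whose log2 signals averaged 6 or more, it correlated with PPA1 replicates 2 and 3 at r = 0.833 and 0.839, against 0.987 between those 2. The differences of the 4 genes, and the calls made among other genes, are therefore also given without it. Of 16 marker genes for cell types, 2 had a named probe set. The guard cell factor FAMA had signals of 4.35 to 16.1 and the root hair expansin EXPA7 of 1.92 to 11.8, so both lay at the low end, and the photosynthesis markers that could check the culture's label were not analysed here.

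CYP81D11 went from almost no signal to a strong one. This enzyme is best known in Arabidopsis for its induction by xenobiotics and by the volatile cis-jasmone. Its control signals were 2.76, 19.4 and 9.96 in replicates 1 to 3. After PPA1 they were 2974, 3330 and 3968. The lowest PPA1 array was 153-fold above the highest control array, and the PPA1 arrays differed among themselves by at most 1.33-fold. On the log2 scale the means were 3.02 ± 1.43 and 11.73 ± 0.21 (SD, n = 3 each), a difference of 8.71. In RNA from a whole culture, more RNA per cell and more cells that carry the transcript cannot be told apart.

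How large that difference is depends on how the dim control arrays are read. Of the 3 controls, 2 were under a signal of 16, and the controls differed 7.03-fold among themselves. With all signals under 16 set to 16, the difference was 7.64 on the log2 scale, or 199-fold, in place of 419-fold. With 32 added to each signal it was 6.35, or 81.4-fold. The PPA1 arrays were steadier, with replicates 2 and 3 averaging 1.22-fold above replicate 1, and without replicate 1 the difference was 8.81.

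CYP81D8, of the same subfamily, started from a measurable level. It is a widely used marker of xenobiotic and oxidative stress in Arabidopsis. In controls the signals were 159, 144 and 92.0, and after PPA1 they were 1268, 3642 and 3585. All 3 PPA1 arrays lay above all controls, and the lowest PPA1 array was 7.97-fold above the highest control. The log2 means were 7.0 ± 0.42 and 11.32 ± 0.87 (SD, n = 3 each), a difference of 4.31, or 19.9-fold. Setting signals under 16 to 16 left this difference at 4.31.

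The PPA1 arrays were uneven for CYP81D8 in a way that CYP81D11 did not share. Replicate 1 was 9.89-fold above the control mean, while replicates 2 and 3 were 28.4-fold and 28.0-fold above it. Without replicate 1 the difference was 4.82 on the log2 scale, or 28.2-fold. For CYP81D11 the same 3 arrays were 367-fold, 410-fold and 489-fold above the control mean. Among the 1225 probe sets that were at least 2-fold higher after PPA1 with no overlap between the conditions (5.39% of those tested), replicate 1 was the lowest PPA1 array in 798 (65.1%) and the highest in 290 (23.7%). Its median log2 gap to the mean of replicates 2 and 3 in those probe sets was -0.63, against -1.51 for CYP81D8 and -0.29 for CYP81D11. What separates replicate 1 from the others was not tested.

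**Figure D1:**
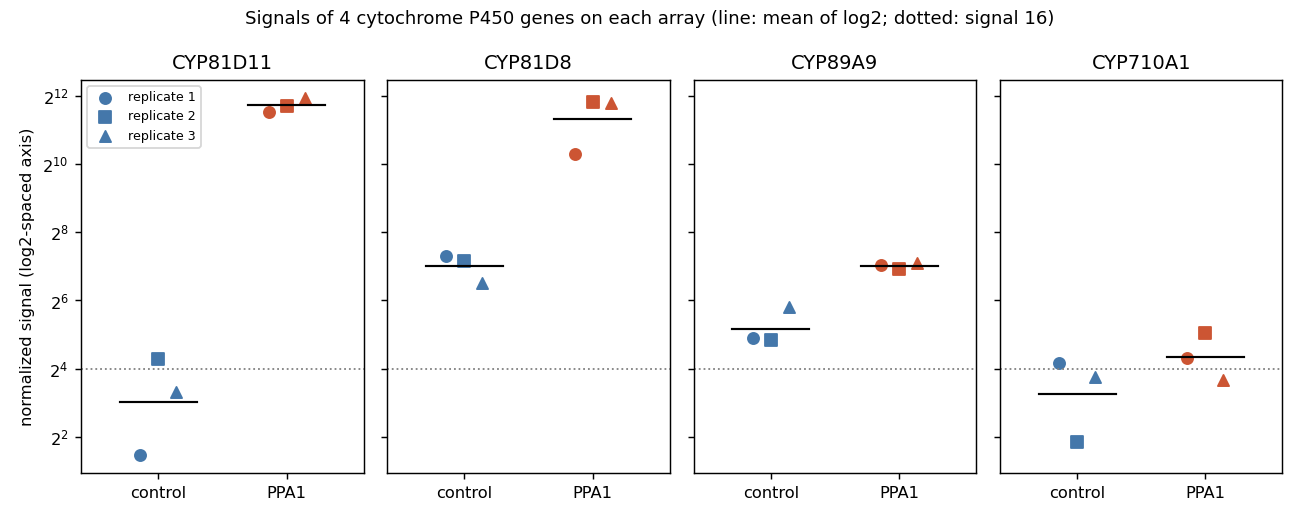
Normalized signal of CYP81D11, CYP81D8, CYP89A9 and CYP710A1 on each of the 6 arrays, on a log2-spaced axis, with symbols for replicate numbers, a line at the mean of the log2 values and a dotted line at a signal of 16. CYP81D11 moves from 2.76 to 19.4 in controls to 2974 to 3968 after PPA1, and CYP710A1 overlaps between the conditions.

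CYP89A9 showed a smaller difference with the tightest PPA1 arrays of the 4 genes. In Arabidopsis leaves this enzyme oxidises chlorophyll breakdown products during senescence. Control arrays gave signals of 29.7, 28.5 and 56.0, and PPA1 arrays gave 132, 120 and 138. The conditions did not overlap, with the lowest PPA1 array 2.15-fold above the highest control. The log2 means were 5.18 ± 0.55 and 7.02 ± 0.10 (SD, n = 3 each), a difference of 1.84, or 3.59-fold. With 32 added to each signal the difference was 1.23, or 2.35-fold. PPA1 replicate 1, at 3.65-fold above the control mean, lay between replicates 2 (3.32-fold) and 3 (3.81-fold), and without it the log2 difference was 1.83.

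CYP710A1 did not separate the conditions. It encodes a sterol desaturase that converts sitosterol to stigmasterol in plant membranes. Its control signals were 17.8, 3.61 and 13.5, and its PPA1 signals were 20.0, 33.0 and 12.6. PPA1 replicate 3 lay below controls 1 and 3, and 3 of the 6 arrays were under 16. The log2 means were 3.25 ± 1.23 and 4.34 ± 0.69 (SD, n = 3 each), a difference of 1.09 that is smaller than the control SD. With signals under 16 set to 16 it was 0.40, or 1.32-fold, and without control replicate 2, the lowest array, it was 0.39. Leaving out PPA1 replicate 1 gave 1.10.

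In all, 3 of these 4 genes were higher on every PPA1 array than on any control, where 10.8% of all tested probe sets were. The genes were chosen on this contrast, so nothing is read from that count. Across the 6 arrays, the log2 signals of CYP81D11 correlated with those of CYP81D8 at r = 0.949 and with those of CYP89A9 at r = 0.936, and CYP81D8 with CYP89A9 at r = 0.877. CYP710A1 gave r = 0.423, 0.526 and 0.596 with CYP81D11, CYP81D8 and CYP89A9. These values describe 6 arrays that share a single treatment contrast, which CYP710A1 did not separate.

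**Figure D2:**
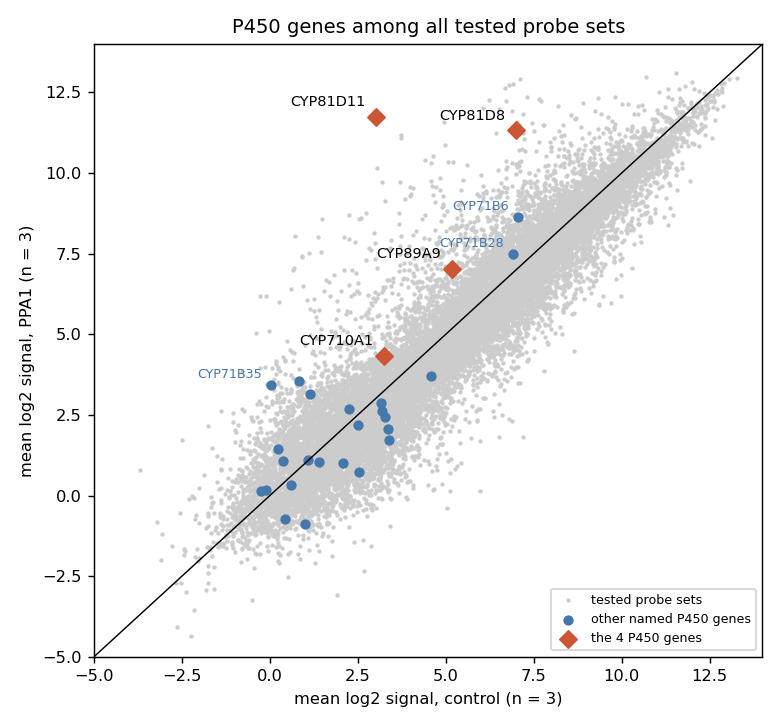
Mean log2 signal after PPA1 (n = 3) against mean log2 signal in controls (n = 3) for the 22746 tested probe sets, with the 4 P450 genes as diamonds, 24 other named P450 genes as blue points and a line of equal means. CYP81D11 lies at 3.02 and 11.73, and most other P450 genes lie at low signals on both axes.

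The rest of the P450 family was seen only in part. The RefSeq table (assembly TAIR10.1) lists 253 P450 genes by symbol or synonym, and besides the 4 genes above, 24 could be paired with a probe set of 1 gene. The table that pairs probe sets with genes named none of the other members of CYP81D, CYP89A and CYP710A, so relatives within those subfamilies were not analysed here. Of the 24, 19 belong to CYP71B, a large subfamily whose known members include enzymes of indole defence compounds. In 19 of the 24 genes all 6 arrays were under a signal of 16.

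Among these 24 genes, 1 rose and 0 fell (limma, Benjamini-Hochberg adjusted p under 0.05 over all tested probe sets), where 0.809% and 0.994% of all tested probe sets were called higher and lower. The gene that rose was CYP71B35. At an unadjusted p under 0.05, 4 were higher and 3 lower, where all tested probe sets gave 8.26% and 14.8%. Being at least 2-fold apart with no overlap held for 4 higher and 3 lower, against 5.39% and 9.11% of all tested probe sets. The median log2 difference over the 24 was -0.28, and over all tested probe sets it was -0.21. When replicate numbers entered limma as a block, 0 of the 24 were called (limma, CYP71B35 at an adjusted p of 0.135). That fit called 0 of all tested probe sets higher and 0 lower. Without PPA1 replicate 1, limma called 2 higher, CYP71B35 (adjusted p = 0.0232) and CYP71B25 (adjusted p = 0.0420), in a fit that called 6.32% of all tested probe sets higher and 7.51% lower. That a family member was not called here does not show that it stayed level, since most were near the low end.

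CYP71B35 had control signals of 1.33, 1.43 and 0.571 and PPA1 signals of 8.36, 15.3 and 9.76. All PPA1 arrays were above all controls, yet all 6 values were under 16. Its log2 difference was 3.39, standard error 0.45 (limma adjusted p = 0.0340, with 0.0232 to 0.135 over the alternatives). With 32 added to each signal the difference was 0.38 and the adjusted p was 0.0581. The call was also lost without any single control array and without PPA1 replicate 2 or 3 (limma adjusted p from 0.0754 to 0.124). Those fits called no probe set at all, so this loss is not particular to CYP71B35.

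CYP71B6, unlike CYP71B35, had a sizeable shift at a readable signal. In Arabidopsis it acts on indole-3-acetonitrile, an intermediate of indole defence metabolism. Its control signals were 155, 100.4 and 149, and its PPA1 signals were 808, 283 and 272, so the conditions did not overlap. The log2 difference was 1.58 with a standard error of 0.49, which missed the threshold (limma adjusted p = 0.143, with 0.0323 to 0.347 over the alternatives). PPA1 replicate 1 was 6.11-fold above the control mean and 2.91-fold above the mean of replicates 2 and 3, which is the opposite placing to CYP81D8. Without replicate 1 the difference was 2.1-fold.

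**Figure D3:**
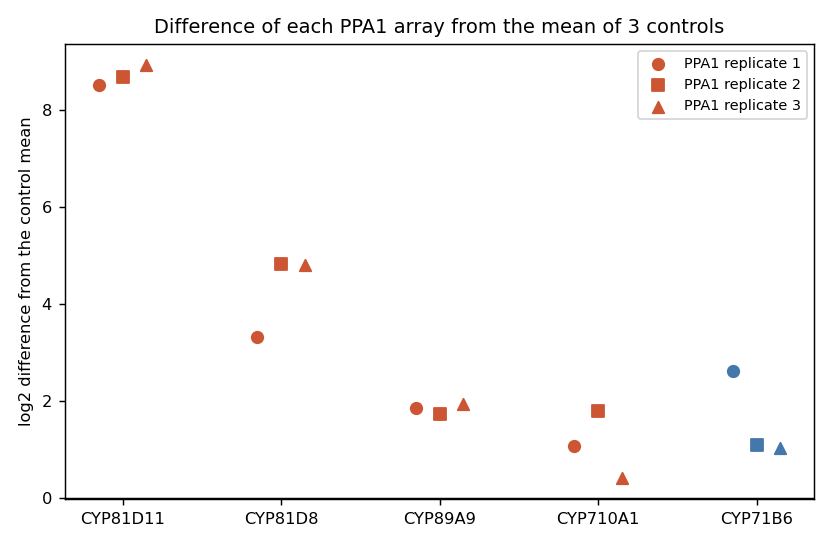
Log2 difference of each PPA1 array from the mean of the 3 controls for the 4 P450 genes and CYP71B6, with a symbol for each replicate number. Replicate 1 is the lowest array for CYP81D8 (9.89-fold against 28.4-fold and 28.0-fold) and the highest for CYP71B6 (6.11-fold), while the arrays lie close together for CYP81D11 and CYP89A9.

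CYP71B28 was the only further P450 gene of the 24 whose brighter condition averaged a log2 signal of 6 or more. In controls it had signals of 107, 99.8 and 161, and after PPA1 of 147, 212 and 185. The conditions overlapped, with a log2 difference of 0.58, standard error 0.28 (limma adjusted p = 0.278). CYP84A4, an enzyme of arabidopyrone synthesis from the phenylpropanoid pathway, had control signals of 23.7, 20.5 and 28.6 and PPA1 signals of 19.1, 13.1 and 8.96. Its conditions did not overlap, and its log2 difference of -0.88 (standard error 0.34) did not pass (limma adjusted p = 0.201). The only other gene that the grouping used here placed in a role group was CYP51G2, under sterols and carotenoids. It lay between 2.38 and 19.2 on all arrays (limma adjusted p = 0.739).

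The 19 CYP71B genes differed from one another. Of these, 4 were higher on every PPA1 array than on any control (CYP71B6, CYP71B23, CYP71B25 and CYP71B35) and 2 were lower (CYP71B24 and CYP71B26), where 10.8% and 20.1% of all tested probe sets were. Their median log2 difference was 0.02, within a range of -1.89 for CYP71B21 to 3.39 for CYP71B35. CYP71B25 went from 1.64, 1.84 and 3.59 in controls to 6.71, 8.60 and 12.4 after PPA1 (log2 difference 2.01, limma adjusted p = 0.0716). CYP71B23 went from 6.38, 0.729 and 1.17 to 20.2, 9.78 and 8.11 (log2 difference 2.73, limma adjusted p = 0.150). In 16 of the 19 genes every array was under 16, and CYP71B genes are similar enough in sequence that a probe set may read more than its named gene.

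**Figure D4:**
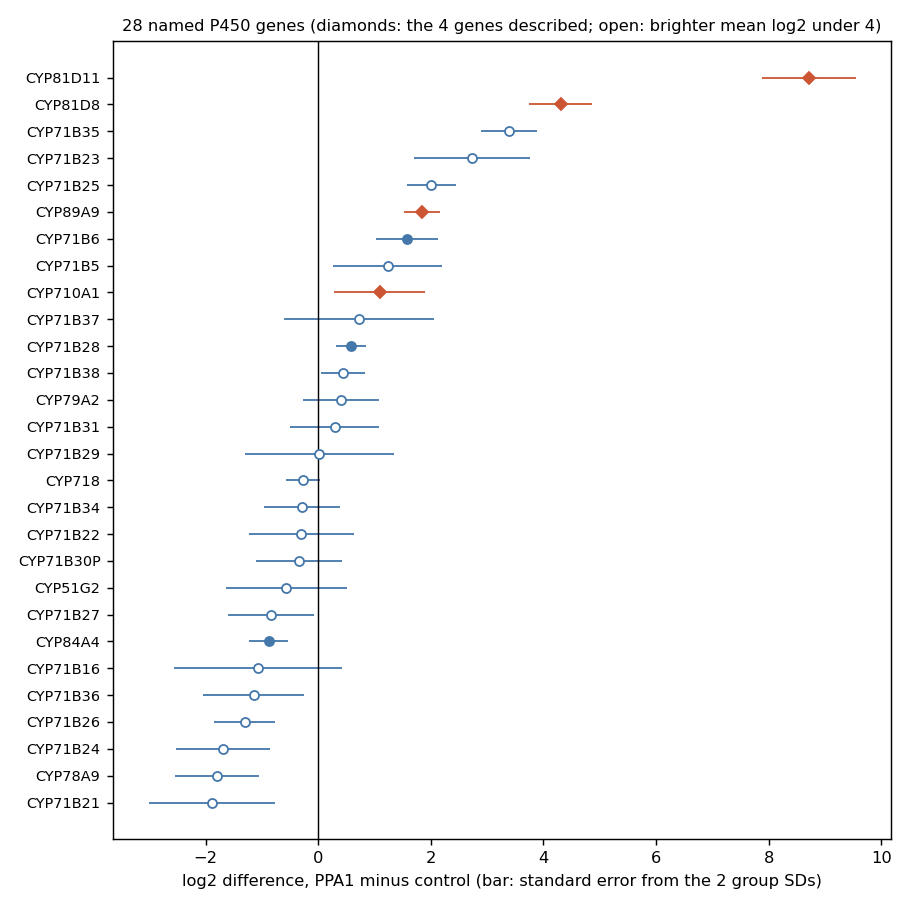
Log2 difference, PPA1 minus control, of the 28 named P450 genes, with bars for the standard error from both group SDs, diamonds for the 4 genes described first and open symbols for genes whose brighter condition has a mean log2 signal under 4. CYP81D11 (8.71) and CYP81D8 (4.31) have the highest values and CYP71B21 (-1.89) the lowest, and most other P450 genes are open symbols.

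Genes that work around these enzymes were followed through 4 lists of 45 genes in all, for redox partners of P450, sterol synthesis, chlorophyll breakdown, and TGA factors with their partners. Only 3 of them had a named probe set. CPI1, the cyclopropylsterol isomerase upstream of sitosterol, fell (limma adjusted p = 0.0403, with 0.00657 to 0.178 over the alternatives). CPI1 had control signals of 124, 148 and 125 and PPA1 signals of 29.5, 46.9 and 42.9, with no overlap. The log2 difference was -1.75 with a standard error of 0.25, or 3.38-fold lower. The call was lost with the replicate block alone (limma adjusted p = 0.135), under which no probe set was called, and kept with the block plus a variance trend (0.0112). It was also lost after median centring (limma adjusted p = 0.0588) or quantile normalization (0.0534). Without any single control array or PPA1 replicate 2 or 3 it was lost too (0.109 to 0.178), in fits that called no probe set. The direction was unaltered, and the call was kept without PPA1 replicate 1.

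The other genes of these lists did not pass. NOL, a chlorophyll b reductase of the pathway in which CYP89A9 acts, had control signals of 58.8, 67.0 and 74.9 and PPA1 signals of 67.3, 74.1 and 56.2, with a log2 difference of -0.02 (limma adjusted p = 0.956). GRX480, a glutaredoxin that binds TGA factors, had control signals of 11.2, 15.5 and 16.7 and PPA1 signals of 17.8, 27.1 and 25.2. Its conditions did not overlap, and its log2 difference of 0.69 (standard error 0.28) missed the threshold (limma adjusted p = 0.215). Of the 3 list genes, 0 were called higher and 1 lower, where 0.809% and 0.994% of all tested probe sets were. The lists' remaining genes, among them the P450 reductases and the TGA factors, were not analysed here.

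Genes beside the P450 loci were compared as well. Among the 5 protein-coding genes on each side of the 4 genes in RefSeq order, 17 probe sets were named, 6 around CYP81D11, 1 around CYP81D8, 4 around CYP89A9 and 6 around CYP710A1. By limma 0 of these 17 were called (lowest adjusted p = 0.0672), and at an unadjusted p under 0.05 there were 3 higher and 5 lower. Over all tested probe sets 0.809% were called higher and 0.994% lower, and 8.26% and 14.8% at the unadjusted p. Their log2 differences ran from -1.70 to 1.25. Beside CYP81D11, AT3G28750 had control signals of 8.11, 13.8 and 6.06 and PPA1 signals of 9.89, 8.37 and 3.39. AT3G28760, the next gene along, had 67.0, 64.6 and 51.9 in controls and 27.9, 31.8 and 26.6 after PPA1. CYP81D8 lies in RefSeq between CYP81D2 and AT4G37380, and AT4G37380 had control signals of 57.3, 81.9 and 53.2 and PPA1 signals of 38.1, 34.1 and 42.2. Of the 17, 3 were higher on every PPA1 array than on any control and 5 were lower, where 10.8% and 20.1% of all tested probe sets were. The higher ones included AT3G03420 (2.38-fold) and AT3G03440 (2.0-fold), which lie 5 and 3 genes from CYP89A9 and not next to it. No neighbour that could be read rose as much as CYP81D11 or CYP81D8, and for CYP81D8 only 1 could be read. Over all tested probe sets, 0 rose more than CYP81D11 and 95 (0.418%) rose more than CYP81D8. Few probe sets anywhere could match them, so nothing about the loci is read from this.

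The probe sets whose log2 signals most resembled each gene over the 6 arrays were taken from 5929 named probe sets whose brighter condition averaged a log2 signal of 6 or more. For CYP81D11 they were AT5G20400 (r = 0.9971), AT4G38250 (r = 0.9954) and AT1G30090 (r = 0.9941). Their own differences were small beside it, as AT4G38250 shows with control signals of 610, 670 and 666 and PPA1 signals of 820, 812 and 826. Likeness here is in the order and spacing of the arrays, not in size. For CYP81D8 they were AT5G61560 (r = 0.9980), AT5G51830 (r = 0.9971) and ATHSP22.0 (r = 0.9965). ATHSP22.0, a small heat shock protein of the endoplasmic reticulum, had control signals of 86.1, 104 and 33.2 and PPA1 signals of 1271, 7327 and 7390. It was picked for its likeness to CYP81D8 on these arrays, so its low PPA1 replicate 1 is not a separate observation.

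For CYP89A9 the closest were AT3G45900 (r = 0.9949), AT3G27110 (r = 0.9942) and AT1G21680 (r = 0.9927). AT1G21680 had control signals of 349, 417 and 705 and PPA1 signals of 1471, 1546 and 1569. Control replicate 3 was the highest control, as for CYP89A9, which choosing by likeness favours. CYP710A1 had the least company, with 2 probe sets at r of at least 0.95, AT1G76050 (r = 0.9836) and AT3G16740 (r = 0.9586), where CYP81D11 had 104, CYP81D8 225 and CYP89A9 101. The third for CYP710A1 was AT3G05760 (r = 0.9445). With 6 arrays in 2 conditions, genes that separate the conditions tend to correlate with one another.

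**Figure D5:**
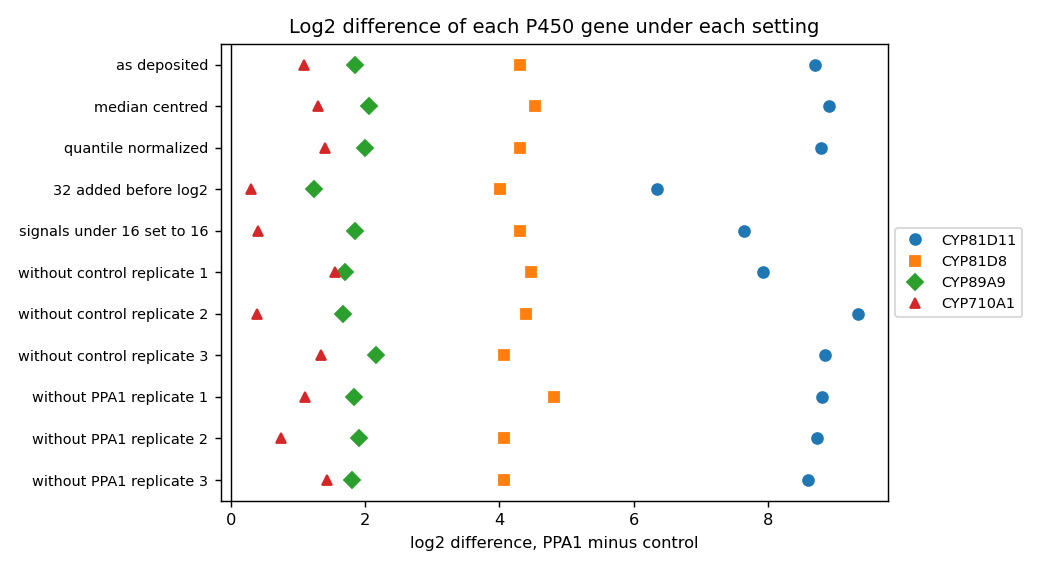
Log2 difference, PPA1 minus control, of the 4 P450 genes as deposited, under 2 scalings, under 2 treatments of dim signals and without each array in turn. CYP81D11 ranges from 6.35 to 9.34, CYP81D8 from 4.01 to 4.82, CYP89A9 from 1.23 to 2.16, and CYP710A1 from 0.30 to 1.54.

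The order CYP81D11, CYP81D8, CYP89A9, CYP710A1 in log2 difference was the same under each setting plotted there, which all use the same arrays. The neighbours CYP89A9 and CYP710A1 in that order came closest without control replicate 1, at 1.70 and 1.54. On the scale where each array was centred on its own median, which moves the median of all probe sets from -0.21 to 0.01, the 4 differences were larger than as deposited by the same shift.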

How the data were processed

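Total RNA from 6 samples was hybridised to ATH1 arrays. The deposited table gives 1 intensity per probe set and array, linear and already normalized by the authors. Per the submitters' processing notes GCRMA was used, in a version not given in the sources used here. It holds no detection calls. GCRMA models background from probe sequence, so folds of dim probe sets depend on that step.

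From these, log2 signals were taken with no added constant, and 64 manufacturer controls were left out. The other 22746 probe sets went into limma 3.58.1 (lmFit, eBayes; R 4.3.3), with condition as the only term, two-sided, with Benjamini-Hochberg adjustment over all of them at 0.05. Python 3.11.15 with pandas 2.3.3 and matplotlib 3.10.9 made the summaries and figures. The number of arrays, 3 per group, limits the precision.

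The 4 genes were paired with probe sets by the rule that chose them. Other genes were named from the platform annotation, with symbols updated by gene ID: 13513 tested probe sets had 1 symbol, 503 several and 8730 were not listed. The annotation lists 0 of the 4. No coordinates are given, since the files name no build. The genes and lists were chosen with earlier results of these data known. Named were the 4 genes, list members and the 3 most similar probe sets per gene. Other P450 genes were named if they passed or had the largest differences at brighter signals (log2 mean of 6 or more). Relatives of the 4 within their subfamilies were to be named too, but none had a named probe set. CYP84A4, CYP51G2, the dim CYP71B genes and the neighbours were named after their values were seen.

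Same-numbered arrays deviated together with r = 0.0645, 0.0325 and 0.0247 over all probe sets and 0.164, 0.239 and 0.154 over brighter ones. Unmatched arrays gave -0.246 to 0.151. Deviations were taken from the mean of each group, so positive matched values push unmatched ones down. The unmatched values are therefore not an independent baseline. What a number shares is not in the labels, so the block is an alternative.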

Additional observations from a re-analysis of the deposited data

How the results depend on the processing

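Counts below are higher and lower. Against 184 and 226 over all probe sets, dropping probe sets under a mean log2 of 4 gave 801 and 1305, 32 added before log2 gave 748 and 1349, a robust variance trend gave 791 and 1171, and the untested rule of no overlap and at least 2-fold gave 1225 and 2073. Under the replicate block there were 0 and 0 by limma (unadjusted p under 0.05, 1768 and 3032), with the trend 833 and 1096, and with the limit on dim probe sets, added after seeing the data, 610 and 947. Without 1 array the counts were 0 to 1437 and 0 to 1708, and 0 unless PPA1 replicate 1 was the array left out. Rises were 44.9% of calls as deposited and 60.8% after median centring. For the 24 other P450 genes the count of 1 higher became 0 with 32 added and with the replicate block. By overlap and fold alone it became 4 higher and 3 lower. The limit, alone or joined to the block, also gave 0, but it removed CYP71B35 before the fit (log2 means 0.04 and 3.43). Those fits therefore did not retest that gene. Leaving out 1 array gave 0 to 2, with CYP71B35 and CYP71B25 called without PPA1 replicate 1. The block joined to the trend called CYP71B6 in place of CYP71B35. The 1 list gene that fell, CPI1, became 0 after median centring, quantile normalization and the replicate block, and 0 to 1 without 1 array. For CYP81D11 the log2 difference of 8.71 became 6.35 with 32 added and 7.64 with signals under 16 set to 16 (added after seeing the data), and 7.93 to 9.34 without 1 array. For CYP89A9 1.84 became 1.23 with 32 added. NOL changed sign at values near 0, to 0.19 after median centring, 0.14 after quantile normalization, 0.06 without control replicate 3 and 0.08 without PPA1 replicate 3 (-0.11 to 0.08 without 1 array). The cause of these shifts was not tested. The replicate block, which called no probe set on its own, ended the calls of CYP71B35 and CPI1. Joined to the trend it kept CPI1 (limma adjusted p = 0.0112) and not CYP71B35 (0.0507).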
